A study of Mus musculus with 6 samples.

Results

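The 9 Hedgehog pathway genes described here are Gli1, Gli2, Gli3, Ptch1, Smo, Hhip, Sufu, Boc and Gas1, chosen by symbol from a deposited count table of 22966 genes, in which each of the 9 has 1 entry. They were measured by RNA sequencing in 6 libraries of mouse cells labelled as primary hepatic stellate cells, 3 titled flox and 3 titled Cre. All 6 share the genotype entry BucheHep and a CCl4 (carbon tetrachloride) treatment entry, a liver toxin with which fibrosis is provoked in mice. The groups are therefore known from the titles alone, and no untreated cells were compared. Every title also begins with S2W, a code that is not interpreted here. The series concerns deletion of butyrylcholinesterase (Bche) in hepatocytes and its effect on stellate cells through muscarinic signalling. The labels do not give the promoter that drives Cre, the strain, age or sex of the mice, or whether libraries stand for separate mice. If they do not, p-values cover technical spread alone.

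Hedgehog ligands bind Patched receptors, aided by the co-receptors Boc, Gas1 and Cdon, and so release the membrane protein Smoothened (Smo) from inhibition. Active Smoothened works at the primary cilium and frees the Gli transcription factors from Sufu, which otherwise holds them back. Gli1, Ptch1 and Hhip are themselves induced by Gli factors, which makes them customary readouts of the pathway. In liver, Hedgehog ligands from injured epithelium act on stellate cells, the retinoid-storing pericytes that turn into myofibroblasts.

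Of the 9 genes, 3 were higher in the Cre libraries: the transcription factor gene Gli3, the transducer gene Smo and the co-receptor gene Boc. Gli3 rose 2.87-fold, Boc 2.13-fold and Smo 2.04-fold. Ptch1 and Gas1 had positive fold changes that did not pass the test, Sufu was at nearly one level in all 6 libraries, and Hhip and Gli2 were each set apart by 1 library. Gli1 had too few counts to be tested. The test was edgeR's quasi-likelihood F-test over 14795 genes, with calls at a Benjamini-Hochberg adjusted p below 0.05, and it called 6.35% of all tested genes higher in Cre and 8.94% lower. Without adjustment, 5 members had a p below 0.05, among 34.8% of all tested genes, and 0 of these 5 had a negative fold change. No member was called lower by edgeR, nor by DESeq2 or limma-voom, which called 15.9% and 5.58% of all genes lower. DESeq2 called 5 members higher (13.4% of all genes) and limma-voom 2 (3.91%). The median log2 fold change of the 8 tested members was 1.01, against 0.01 over all tested genes. Each of the 8 had at least 18 counts in every library, so none was tested through 1 group alone. In bulk RNA, fewer cells of a type and less RNA per cell cannot be told apart.

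Library totals ran from 37273142 to 41006722 counts. Scaled to TMM library size (CPM), 3 counts equal 0.0724 CPM in Cre 2, the lowest such value, and 0.0862 CPM in flox 2, the highest. Markers of the labelled cell type were uneven. Of the 12 quiescent stellate genes, Ecm1 had 4947 to 7368 counts, Pdgfrb 1384 to 5197 and Reln 1026 to 6183, whereas Des had 311 to 981, Lrat 5 to 95 and Gfap 0 to 4. Col1a1, of the activated list, had 9784 to 34644 counts. Macrophage and Kupffer cell markers had a summed level of 7854 to 22111 CPM in flox and 2402 to 2830 CPM in Cre, with 13 of 14 lower in Cre and none at 0. Quiescent stellate markers summed to 235 to 378 CPM in flox and 275 to 581 in Cre, with 1 of 11 tested higher. Activated stellate markers summed to 1799 to 4999 CPM in flox and 3407 to 4878 in Cre, with 4 of 12 higher and 10 at a positive fold change. Spp1 alone gave 1441, 1855 and 75.1 CPM of this sum in flox 1, 2 and 3, and 219, 207 and 288 CPM in Cre. Mesothelial markers summed to 186 to 278 CPM in flox and 218 to 895 in Cre, with 0 of 10 past the edgeR test, 6 at an unadjusted p below 0.05, 7 called by DESeq2 and 0 by limma-voom. Endothelial markers summed to 1175 to 3599 CPM in flox and 1882 to 2999 in Cre, with 1 of 8 lower. Portal fibroblast markers, a list that also holds Gli1, summed to 278 to 419 CPM in flox and 586 to 1035 in Cre, with 1 of 8 tested higher. Only 4 of the 8 had a positive fold change, and Fbln2 alone gave 231 to 360 CPM in flox and 497 to 851 in Cre. Cholangiocyte (1 of 6 lower) and neutrophil markers (1 of 2 lower) were measured too. In edgeR and in limma-voom, 0 of 5 smooth muscle, 0 of 7 hepatocyte, 0 of 5 T and NK cell and 0 of 4 B and plasma cell markers passed. For these 4 lists, 3, 3, 2 and 1 markers had an unadjusted p below 0.05 in edgeR, and DESeq2 called 3, 2, 1 and 1. The part of these other cells in the results below was not tested.

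**Figure D1:**
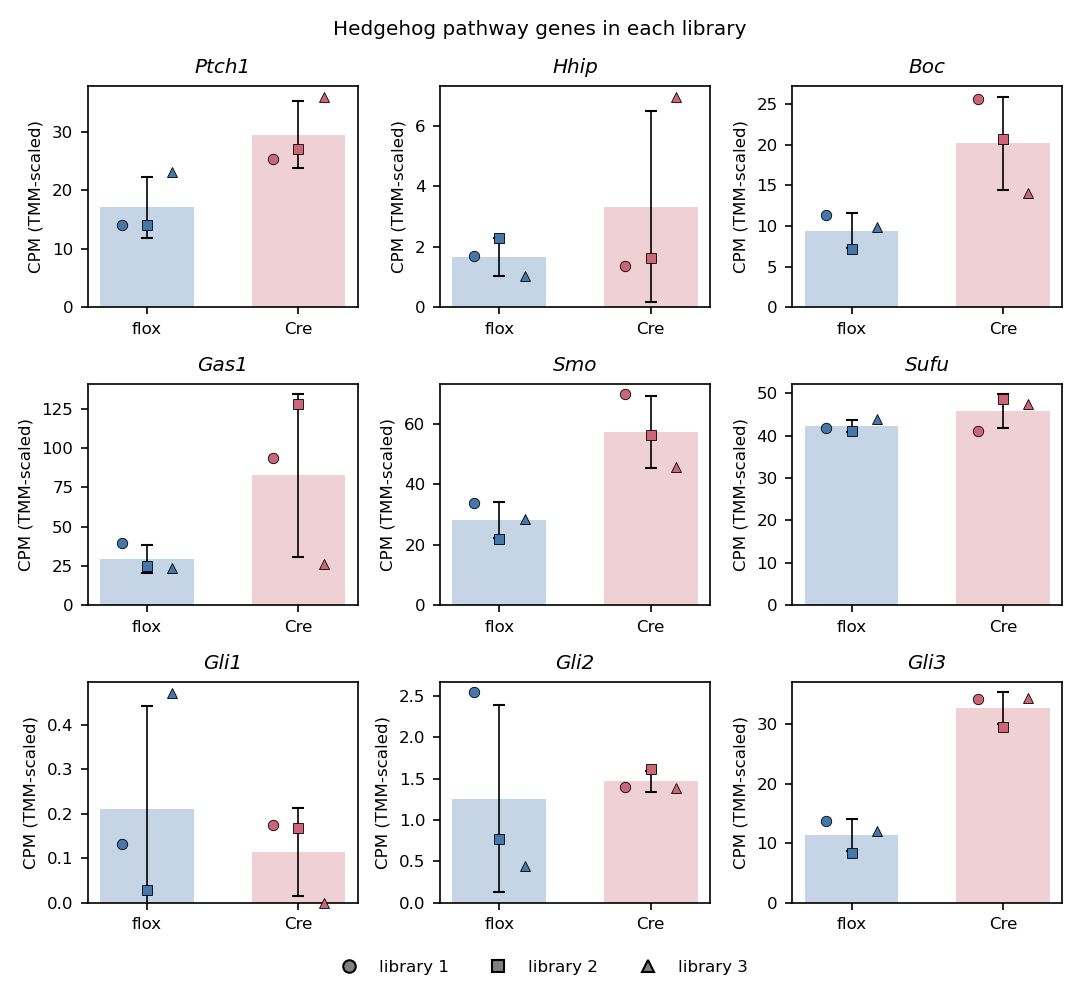
CPM of the 9 Hedgehog pathway genes in each library (y axis, TMM-scaled, from 0), for flox and Cre on the x axis. Bars are means and error bars SD over 3 libraries, and symbols mark library 1, 2 and 3. For Gli3, Smo, Boc and Ptch1 all 3 Cre libraries lie above all 3 flox libraries, while Hhip is high in Cre 3 only, at 6.97 CPM.

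Gli3, which encodes the Gli factor that acts mainly as a repressor when the pathway is off (chromosome 13, 15463235 to 15730026 in GRCm38), had the largest called change of the 9. It stood at 13.8, 8.36 and 12.0 CPM in flox 1, 2 and 3 and at 34.2, 29.6 and 34.3 CPM in Cre 1, 2 and 3. The groups were far apart and the Cre libraries lay close to each other. On the log2 scale, Cre over flox, the change was 1.52 ± 0.21 (± is the standard error from 3 libraries per group, edgeR adjusted p = 0.0237). A predicted gene, Gm6556, overlaps exons of Gli3. Reads from the shared bases cannot be assigned with certainty, since the sources used here do not say whether counting used strand. How many of the Gli3 counts come from these bases was not measured.

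Gli2, which encodes the main activating Gli factor (chromosome 1, 118834132 to 119053619), was scarce and did not pass. It had 2.55, 0.776 and 0.448 CPM in flox and 1.40, 1.62 and 1.39 CPM in Cre. The Cre libraries lay within the range of the flox libraries, of which flox 1 was the highest of all 6. It was at 0.23 ± 0.65 on the log2 scale (edgeR adjusted p = 0.835) and turned to -0.18 without flox 3, while leaving out flox 1 gave 1.28.

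Gli1, the factor that is also a target (chromosome 10, 127329882 to 127341974), was near the limit of detection. Its raw counts were 5, 1 and 19 in the flox libraries, against 7, 7 and 0 in Cre 1, 2 and 3. The count of 0 in Cre 3 allows up to 0.0734 CPM, a limit that covers counting error only. It was not tested, and without a count filter the edgeR fit gave a log2 fold change of -0.86 ± 1.39 (adjusted p = 0.708). Exons of Arhgap9 and of a predicted gene overlap those of Gli1, so even these counts may not all be Gli1. Within each library, Gli3 made up most of the summed FPKM (CPM without TMM scaling, per kilobase of gene length) of the 3 Gli genes. Its share was 88.2%, 94.0% and 89.8% in flox and 96.5%, 95.6% and 97.6% in Cre, so the groups did not overlap. This share rests partly on the Gli3 change itself.

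Ptch1 encodes the main Hedgehog receptor, which silences Smoothened until ligand binds (chromosome 13, 63508328 to 63573598). It stood at 14.0, 14.1 and 23.1 CPM in flox and at 25.4, 27.1 and 36.0 CPM in Cre. The groups did not overlap, but flox 3 came close to Cre 1. The change of 0.79 ± 0.25 on the log2 scale did not pass (edgeR adjusted p = 0.0764). Leaving out flox 3 raised it to 1.08 and brought it past the threshold (edgeR adjusted p = 0.00831), and DESeq2 on all 6 libraries called it as well (adjusted p = 0.0273). Flox 3 also had the lowest macrophage sum of the flox libraries, 7854 CPM against 17256 and 22111. Its endothelial sum (3599 CPM against 1447 and 1175) and hepatocyte sum (597 against 162 and 278) were the highest of the flox libraries. The part of these cells in the Ptch1 values was not tested.

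Smo, the gene of Smoothened (chromosome 6, 29735503 to 29761365), stood at 33.9, 22.0 and 28.3 CPM in flox and at 69.8, 56.3 and 45.9 CPM in Cre. Every Cre library exceeded every flox library, with Cre 3 nearest to them. It rose by 1.03 ± 0.22 on the log2 scale (edgeR adjusted p = 0.0305). Across the 9 genes, 4 had Cre libraries that all lay above the flox libraries, Gli3, Smo, Boc and Ptch1, where 19.6% of all tested genes did.

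Upstream sequence was matched for 7 of the 9 genes in RefSeq (GRCm38.p6), not Gli1 or Boc. The 250 bases before the RefSeq start are shown for the 2 called genes among the 7 and for Ptch1, the classic Gli target, 5′ to 3′ on the gene's strand. Capitals mark the GC box GGGCGG or its reverse complement CCGCCC, which 32.7% of 32851 promoter windows of this length hold. The Gli3 window is chr13:15463473-15463722 on the plus strand and lies in an exon of Gm6556. The Smo window is chr6:29735247-29735496 on the plus strand, and that of Ptch1 is chr13:63565736-63565985 on the minus strand. The RefSeq start differs from the GENCODE gene start used for the positions given here, by 488 bases downstream for Gli3, 7863 downstream for Ptch1 and 6 upstream for Smo. The Gli3 and Ptch1 windows therefore lie wholly inside the GENCODE gene, that of Ptch1 in no exon.
Gli3: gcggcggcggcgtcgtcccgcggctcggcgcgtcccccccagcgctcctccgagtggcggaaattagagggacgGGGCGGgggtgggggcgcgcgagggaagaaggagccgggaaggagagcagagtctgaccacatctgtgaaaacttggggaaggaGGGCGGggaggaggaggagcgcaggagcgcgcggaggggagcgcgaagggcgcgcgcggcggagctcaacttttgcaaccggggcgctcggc
Smo: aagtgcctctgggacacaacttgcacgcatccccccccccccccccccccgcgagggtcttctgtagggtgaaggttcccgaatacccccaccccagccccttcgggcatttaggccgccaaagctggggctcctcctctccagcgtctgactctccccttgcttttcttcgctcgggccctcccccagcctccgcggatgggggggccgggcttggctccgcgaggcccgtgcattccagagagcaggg
Ptch1: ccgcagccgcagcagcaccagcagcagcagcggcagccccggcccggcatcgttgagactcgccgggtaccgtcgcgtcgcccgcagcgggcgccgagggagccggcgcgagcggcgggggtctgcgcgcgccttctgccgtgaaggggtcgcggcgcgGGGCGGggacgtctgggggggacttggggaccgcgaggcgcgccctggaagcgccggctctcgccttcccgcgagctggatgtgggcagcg
The Gli3 window holds 2 GC boxes, that of Ptch1 holds 1 and that of Smo holds 0. The consensus Gli site GACCACCCA (reverse complement TGGGTGGTC) was searched on both strands in the same windows. It was in 0 of the 7 windows, also with 1 mismatch allowed. Of all windows, 0.225% held it exactly and 5.79% with up to 1 mismatch. Bases outside these windows were not searched. GC content was 72.8% for Gli3, 68.4% for Smo and 78.4% for Ptch1, against a median of 52.4% over all windows.

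Boc, the gene of a ligand-binding co-receptor of the immunoglobulin family (chromosome 16, 44485049 to 44558897), stood at 11.3, 7.16 and 9.88 CPM in flox and at 25.6, 20.7 and 14.1 CPM in Cre. The groups did not overlap, and Cre 3 was again the lowest of the Cre libraries. Boc rose by 1.09 ± 0.27 on the log2 scale (edgeR adjusted p = 0.0438), and limma-voom did not call it (adjusted p = 0.0674). Portal fibroblast markers summed to 419, 278 and 374 CPM in flox and 1035, 797 and 586 CPM in Cre, mostly from Fbln2. Within each group this is the same order of libraries as for Boc and for Smo. The mesothelial sum was also lowest in Cre 3 among the Cre libraries. The part of these cells in the Boc and Smo values was not tested.

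Gas1 encodes a membrane-anchored co-receptor (chromosome 13, 60174405 to 60177365). It stood at 39.5, 24.7 and 23.3 CPM in flox and at 93.6, 127.8 and 26.3 CPM in Cre. Cre 1 and Cre 2 were far above all other libraries, whereas Cre 3 lay among the flox libraries, so the groups overlapped. At 1.50 ± 0.55 on the log2 scale, it did not pass (edgeR adjusted p = 0.106). Without Cre 3 it was 1.95 and passed (edgeR adjusted p = 0.0270), and DESeq2 called it on all 6 libraries (adjusted p = 0.0230). The mesothelial markers had the same order of libraries in Cre, with sums of 743, 895 and 218 CPM in Cre 1, 2 and 3 against 278, 186 and 248 CPM in flox. None of the 10 mesothelial markers was at 0 in all libraries, and their part in the Gas1 values was not tested. The predicted gene Gm48488 overlaps an exon of Gas1.

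Hhip encodes a membrane protein that binds and sequesters the ligands (chromosome 8, 79965851 to 80058006). It stood at 1.68, 2.30 and 1.04 CPM in flox and at 1.38, 1.62 and 6.97 CPM in Cre. Cre 3 was the only library above 2.30 CPM. The log2 fold change was 0.99 ± 0.70 (edgeR adjusted p = 0.356), and it turned to -0.14 without Cre 3. Quiescent stellate markers were also highest in Cre 3, at a sum of 581 CPM against 278 and 275 CPM in Cre 1 and 2 and 378, 365 and 235 CPM in flox. Their part in the Hhip value was not tested. The predicted gene Gm27820 overlaps exons of Hhip.

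Sufu encodes the cytoplasmic inhibitor that binds Gli proteins (chromosome 19, 46396896 to 46488804). It stood at 41.8, 41.2 and 43.9 CPM in flox and at 41.2, 48.5 and 47.5 CPM in Cre. All 6 libraries lay between 41.2 and 48.5 CPM, and the groups overlapped. The log2 fold change was 0.11 ± 0.11 (edgeR adjusted p = 0.483). It ran from 0.10 without Cre 2 to 0.27 with library totals in the alternatives run.

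**Figure D2:**
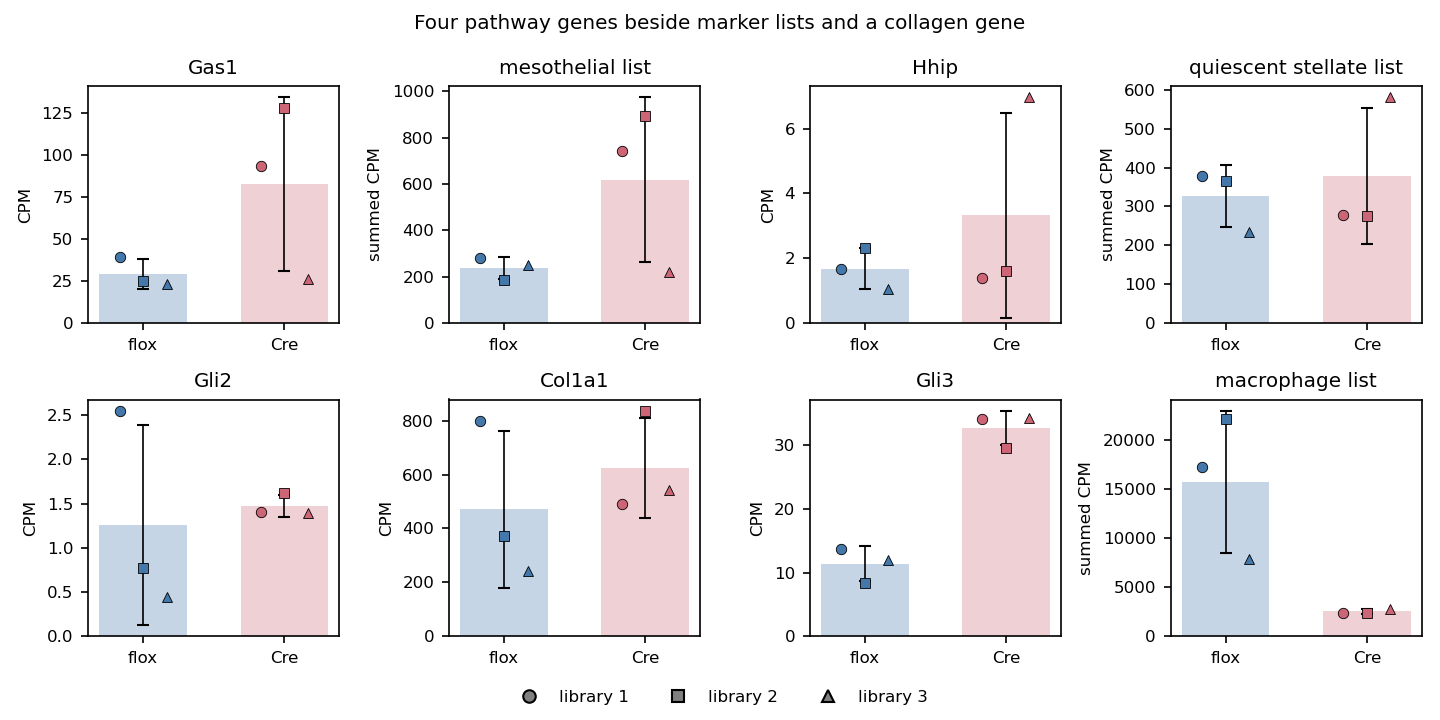
Gas1, Hhip, Gli2 and Gli3 (CPM) beside the summed CPM of mesothelial, quiescent stellate and macrophage markers and the CPM of Col1a1, per library, all axes from 0. Bars are means and error bars SD over 3 libraries. Gas1 and the mesothelial sum are both lowest in Cre 3 among the Cre libraries, and Hhip and the quiescent stellate sum are both highest there.

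Per gene length, the order of the 9 genes was similar in both groups, as the plot of deposited FPKM shows. In flox, Gas1 (9.28 ± 2.69 FPKM, SD, n = 3) and Sufu (8.86 ± 0.814) led, followed by Smo (6.50 ± 1.47), Ptch1 (2.13 ± 0.786), Boc (2.03 ± 0.492) and Gli3 (1.28 ± 0.336). Hhip (0.171 ± 0.0562), Gli2 (0.0846 ± 0.0750) and Gli1 (0.0568 ± 0.0648) were last. Neighbours whose libraries overlapped were Gas1 and Sufu, Ptch1 and Boc, Boc and Gli3, Hhip and Gli2, and Gli2 and Gli1. In Cre, Gas1 (29.6 ± 18.6 FPKM) was followed by Smo (14.8 ± 3.32), Sufu (10.7 ± 0.823), Boc (4.82 ± 1.45), Gli3 (4.10 ± 0.337) and Ptch1 (4.05 ± 0.716). Hhip (0.380 ± 0.357), Gli2 (0.112 ± 0.0100) and Gli1, listed at 0.0513, 0.0488 and 0 FPKM in Cre 1, 2 and 3, were last again. The libraries of Gas1 and Smo, of Boc and Gli3, and of Gli3 and Ptch1 overlapped in Cre, so the order within these pairs is not resolved. Smo thus stood below Sufu in every flox library and above it in every Cre library. Their FPKM ratio, Smo over Sufu, was 0.896, 0.588 and 0.712 in flox and 1.87, 1.28 and 1.07 in Cre. This difference rests mostly on the Smo change itself, with Sufu at 0.11 ± 0.11 on the log2 scale. The ratio of Ptch1 to Smo overlapped between the groups, at 0.221, 0.342 and 0.436 in flox and 0.194, 0.257 and 0.419 in Cre.

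**Figure D3:**
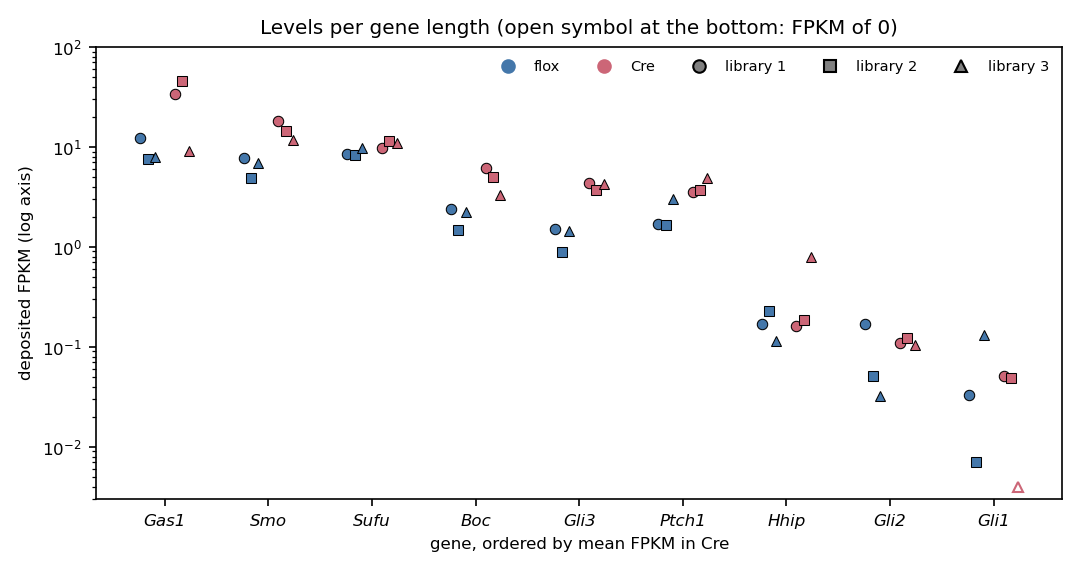
Deposited FPKM of the 9 genes (log y axis) in each library, genes ordered along the x axis by mean FPKM in Cre, colours for flox and Cre and symbols for library 1, 2 and 3. Gas1, Smo and Sufu lie near or above 10 FPKM in Cre, and Hhip, Gli2 and Gli1 below 1. The open symbol marks Gli1 in Cre 3, listed at 0.

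The rest of the pathway was read from 59 genes in 5 lists by role, of which 55 were tested. Of these, 8 were higher and 4 lower, beside 6.35% and 8.94% of all tested genes, and the median log2 fold change was 0.13. The called genes were co-receptors, cilium and membrane regulators, and targets.

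Ligand genes had few counts in these libraries. Shh had 0 counts in all 6, which allows up to 0.0724 to 0.0862 CPM per library, and Ihh had 11 counts in all. For Dhh the raw counts were 21, 18 and 22 in flox, against 35, 23 and 33 in Cre, or 0.47 ± 0.41 on the log2 scale (edgeR adjusted p = 0.456). These 3 were singled out after their values were seen. Of the 6 tested genes for ligands and their release, 0 passed in edgeR, also by limma-voom, while DESeq2 called Disp1 and Hhat. Disp1, which releases the lipid-bearing ligand from the sending cell, was at 0.58 ± 0.19, and Hhat, the acyltransferase that attaches palmitate to it, at 0.56 ± 0.23 (edgeR adjusted p = 0.0858 and 0.132). Both also had an unadjusted p below 0.05, and no other gene of the list did.

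Among receptors and co-receptors, 2 of 8 rose and 0 fell, with a median log2 fold change of 1.22. Cdon, the close relative of Boc, stood at 9.01, 6.93 and 11.0 CPM in flox and 40.9, 36.0 and 17.0 CPM in Cre. Cre 3 was the lowest Cre library for Cdon, as for Boc and Gas1. The log2 fold change of Cdon was 1.80 ± 0.36 (edgeR adjusted p = 0.0273), and limma-voom did not call it (adjusted p = 0.0583). The glypican gene Gpc4, a heparan sulphate carrier at the cell surface, rose by 1.27 ± 0.23 (edgeR adjusted p = 0.0250), from 12.4 ± 2.84 to 30.0 ± 6.18 CPM (SD, n = 3), and was highest in Cre 3.

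The cilium and membrane list moved in both directions, with 3 of 17 higher, 4 lower and a median log2 fold change of 0.03. Gpr161, a ciliary receptor that restrains the pathway, rose by 1.50 ± 0.33, and Evc and Evc2, partners that relay the Smoothened signal at the base of the cilium, rose by 1.03 ± 0.18 and 0.98 ± 0.16. Evc2 went from 11.3 ± 1.89 to 22.2 ± 1.05 CPM. The kinesin subunit gene Kif3a, needed to build cilia, had a log2 fold change of -0.75 ± 0.12. The ubiquitin ligase gene Mgrn1 was at -0.89 ± 0.20, the receptor kinase gene Grk2 at -0.96 ± 0.19 and the beta-arrestin gene Arrb2 at -1.69 ± 0.19. The edgeR adjusted p of these 7 genes ran from 0.0234 to 0.0359. Gpr161 was not called by limma-voom (adjusted p = 0.0582), nor Mgrn1 by edgeR without Cre 3 (adjusted p = 0.0595). Arrb2 stood at 234, 267 and 163 CPM in flox and 71.1, 62.2 and 72.9 CPM in Cre, with flox 3 nearest to Cre. Grk2 and Arrb2 desensitise many receptors and are not specific to this pathway. Among the flox libraries, flox 3 was lowest also for Grk2 (241 CPM against 330 and 348) and Mgrn1 (120 against 179 and 202). Kif3a was instead highest in flox 3, at 98.4 CPM against 89.6 and 86.3. Macrophage sums were lowest in flox 3 among the flox libraries, as for Arrb2, Grk2 and Mgrn1 but not Kif3a, and lower in Cre, and their part in these falls was not tested.

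Of the 14 kinases and turnover genes 0 passed in edgeR or limma-voom, with a median of 0.01, while DESeq2 called Csnk1a1 and 3 had an unadjusted p below 0.05 in edgeR. Csnk1a1, the gene of casein kinase 1 alpha, was at 0.34 ± 0.11, and Ulk3, a kinase gene, at -0.46 ± 0.17 (edgeR adjusted p = 0.0858 and 0.112). Among 10 tested textbook target genes outside the 9, 3 were called higher and 0 lower, with a median of 1.14. A positive fold change was seen in 6 of the 10. Spp1 (-2.24 ± 0.96), Ccnd1 (-0.48 ± 0.23), Sox9 (-0.29 ± 0.37) and Bcl2 (-0.02 ± 0.21) were negative and did not pass. Ccnd2, the cyclin D2 gene, stood at 94.3, 69.2 and 104.8 CPM in flox and 195, 175 and 231 CPM in Cre. It rose by 1.17 ± 0.19 on the log2 scale. The forkhead gene Foxf1 was at 10.5, 8.68 and 11.3 CPM in flox and 22.7, 16.0 and 28.2 CPM in Cre, at 1.13 ± 0.24. Limma-voom did not call Foxf1 (adjusted p = 0.0523), nor did edgeR without Cre 3 (adjusted p = 0.0578). Foxm1, a mitotic transcription factor gene, was at 10.6, 7.96 and 8.91 CPM in flox and 42.0, 40.5 and 18.7 CPM in Cre, at 1.88 ± 0.33. Cre 3 was the lowest Cre library for Foxm1. The groups did not overlap for any of these 3, and the edgeR adjusted p ran from 0.0241 to 0.0305. All 3 genes have inputs other than Hedgehog signalling. Exons of Ccnd2, Foxf1, Foxm1 and Mgrn1 overlap those of predicted or uncharacterised genes, and those of Foxm1 also overlap Tex52.

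**Figure D4:**
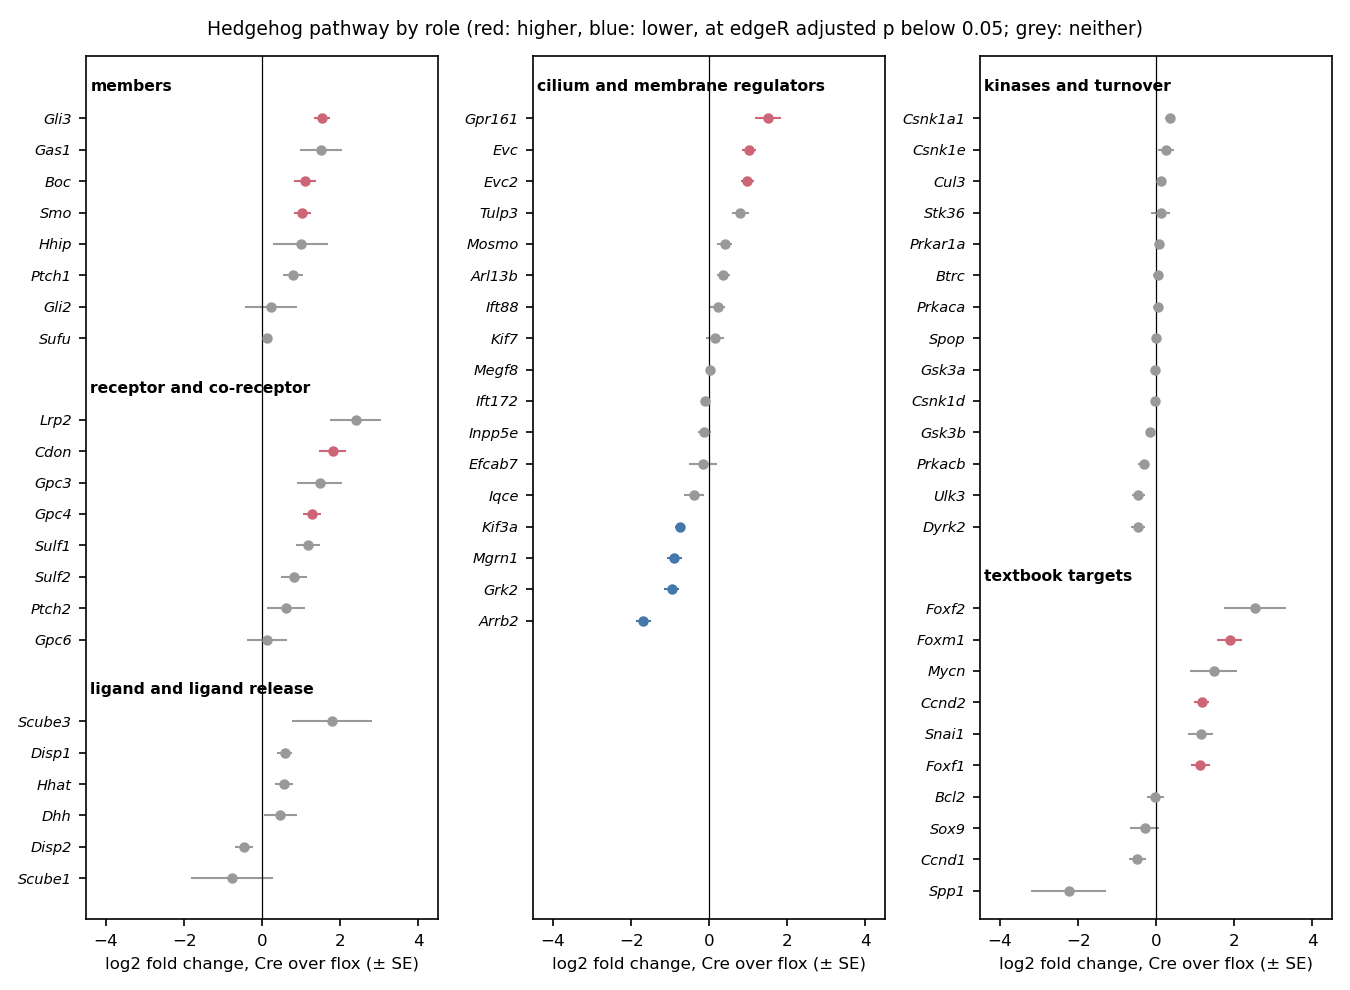
Log2 fold change, Cre over flox, with its standard error (x axis) for the 8 tested members and the 55 tested genes of the wider lists, grouped by role. Red points were higher and blue lower at an edgeR adjusted p below 0.05. The 4 lower genes all sit in the cilium and membrane list.

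Profiles across the 6 libraries were compared for Gli1, Gli2 and Gas1 by the root mean square difference between log2 CPM values centred on each gene's mean. Gli2 was closest to the collagen genes Col1a1 (0.27), Col1a2 (0.31) and Col5a2 (0.34), where the median over 11654 genes was 0.81. Col1a1 stood at 797, 371 and 243 CPM in flox and 490, 836 and 544 CPM in Cre, so flox 1 was high and flox 3 low for both genes. Gas1 was closest to Pkhd1l1 (0.13), Stxbp6 (0.14) and Mgat3 (0.15), with a median of 0.999 over 11653 genes. Gli1, at its low counts, was closest to Hspa1b (0.63), whose reads are hard to separate from those of its near copy Hspa1a, Hoxa5 (0.63) and Clca3a2 (0.64), with a median of 1.13. These are descriptions of 6 libraries that share 2 groups and differ in the summed levels of cell type markers.

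The calls depended on which libraries were present. Without any of flox 1, flox 2, Cre 1 and Cre 2 in turn, 0 of the 9 genes passed the threshold in edgeR, and 0 genes of the whole table did, with 5, 3, 4 and 4 members at an unadjusted p below 0.05, beside 24.4%, 23.4%, 23.5% and 26.1% of all tested genes. Libraries were left out in edgeR only. Leaving out flox 3 gave 4 members, Gli3, Smo, Boc and Ptch1, beside 16.0% of all genes higher. Leaving out Cre 3 gave 4, Gli3, Smo, Boc and Gas1, beside 5.04%. The fold changes themselves moved less: with 1 library left out, Gli3 stayed between 1.36 and 1.69, Smo between 0.89 and 1.20 and Boc between 0.91 and 1.32.

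**Figure D5:**
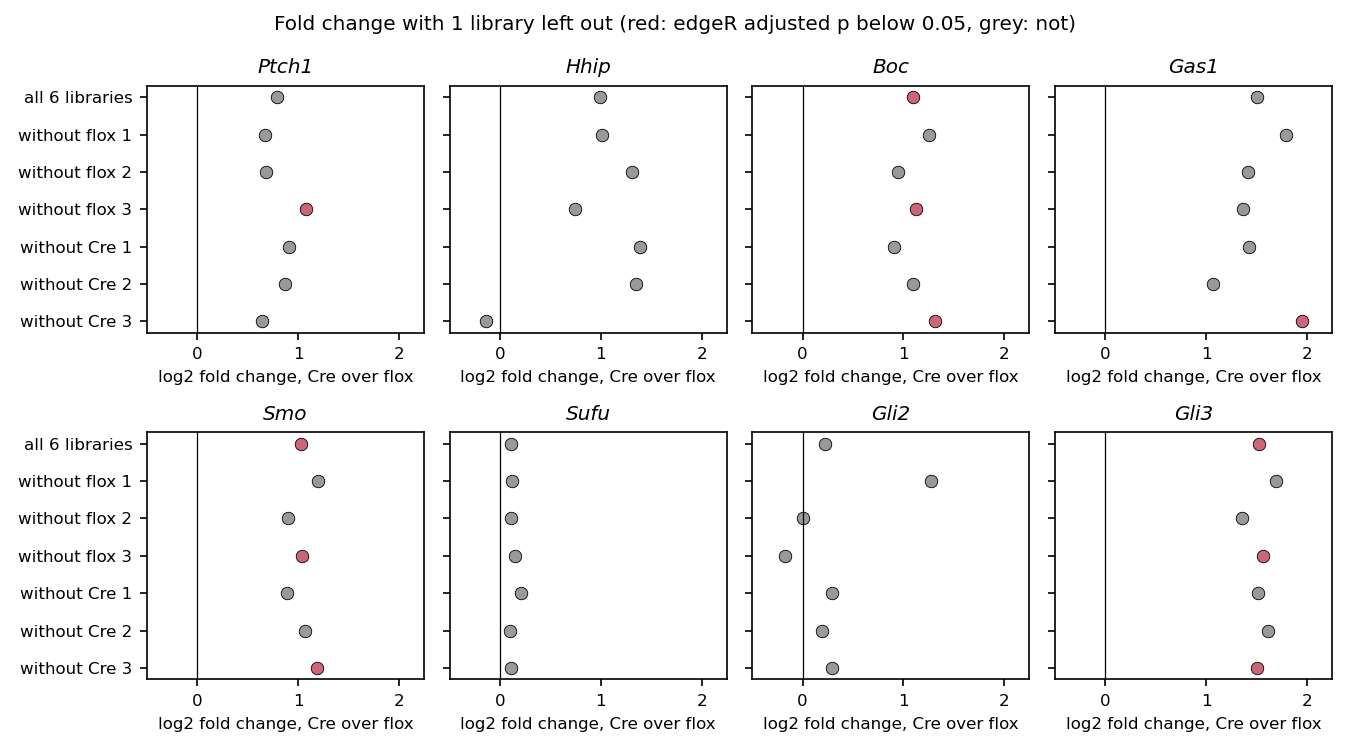
Log2 fold change, Cre over flox (x axis), of the 8 tested members with all 6 libraries and with each library left out (y axis). Red points passed an edgeR adjusted p of 0.05. Gli3, Smo and Boc keep a positive fold change throughout, Hhip turns to -0.14 without Cre 3 and Gli2 to -0.18 without flox 3.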

How the data were processed

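Total RNA from a column kit went into libraries made with a SMARTER mRNA kit, per the labels' protocols. The authors deposited raw counts per gene symbol and, in a second table, FPKM values. The submitters' processing notes list GRCm38, mm10 and hg38 without saying what each was for. The sources used here do not name the aligner, counter or annotation or say whether strand was used. Groups and library numbers came from the titles, and 0 per-sample columns were left unused.

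For the tests, edgeR 4.0.16 (R 4.3.3) was run with TMM scaling, no covariate and two-sided p-values on the 14795 genes that passed filterByExpr (at least 10 counts, total of 15); 8171 did not pass. CPM are scaled to TMM library sizes, and standard errors were derived from the fold change and its F value (absolute change over root F). With 3 libraries against 3 no permutation test is given, since it could not pass 0.05. Profiles used log2 CPM with a prior count of 2 and tested genes with an edgeR average log2 CPM of 1 or more. Predicted genes, clone-named genes, pseudogenes and immunoglobulin segments, recognised by their symbols, were left out of the profile comparison and its medians. Positions are from GENCODE M21 (GRCm38). Every pair of libraries in a group differed by more than sampling noise (lowest chi-square per gene 33.8). Scripts were tested on simulated data. Text names all 9 members, called genes of the wider lists, the 2 genes of lowest p per list and the 3 closest profiles. Spp1, Fbln2 and the textbook targets with a negative fold change are named as well, after their values were seen. The stellate markers Ecm1, Pdgfrb, Reln, Des, Lrat, Gfap and Col1a1 are given with their counts as a further choice outside this rule. Members and lists were chosen with earlier results of these data known.

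Each choice was varied in turn: the tool (DESeq2 1.42.0, limma-voom from limma 3.58.1), the scaling (RLE, library totals), the filter (none, or at least 1 CPM in 3 libraries), the unit (limma-trend on log2 FPKM with 1 or 0.1 added), a replicate block, and leaving out each library.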

Additional observations from a re-analysis of the deposited data

How the results depend on the processing

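Of 120 fold changes of the 8 tested members over 15 alternatives, 98 kept their direction and their side of the threshold. A further 16, of Gli3, Smo and Boc, fell short of it, 4, of Ptch1 and Gas1, came past it, and 2 turned sign: Gli2 at -0.18 without flox 3 (up to 1.28 without flox 1) and Hhip at -0.14 without Cre 3 (up to 1.39 without Cre 1). The cause was not tested. DESeq2 called 5 members and 17 other pathway genes higher, with 4334 genes in all. Limma-voom called 5 other pathway genes higher and 1404 genes in all, and library totals called 14 other pathway genes higher. Against 2263 genes called in all, leaving out 1 library gave 0 to 5329, with 0 to 4 members higher, and 0 to 16 other pathway genes higher and 0 to 7 lower.

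With a replicate block, edgeR called 0 members, 0 other pathway genes higher or lower and 0 genes in all, with 5 members and 4296 genes at an unadjusted p below 0.05; no other tool was run with the block. Deviations of same-numbered libraries from their group means had correlations across genes of -0.0328, -0.105 and -0.0556, and none correlated best with its own number. With 3 libraries per group, these values cannot decide whether the numbers mark a pairing. Library totals shifted the median of all genes by 0.16 and turned the share of calls that were higher from 41.5% to 57.0%. It was 58.4% and 57.7% with limma-trend on log2(FPKM + 1) and log2(FPKM + 0.1), where fold changes of low genes are understated, and 56.3% without Cre 3. Low counts kept Gli1 and 4 wider-list genes (Shh, Ihh, Scube2 and Foxl1) out of the test. Of the 12 called genes of the wider lists, limma-voom did not call Cdon, Gpr161 and Foxf1, and Foxf1 and Mgrn1 lost their call without Cre 3; all 12 kept their direction in the 15 alternatives.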
